A study of Mus musculus with 2 samples.

Results

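The cells described here are ependymal cells with few transcripts of Ucma, Krt15 and Calb1 and few transcripts of interferon-induced genes. They were chosen from their own counts of unique molecular identifiers (UMIs), in 2 single-cell libraries of mouse brain. A barcode was a member if it held 1000 UMIs and 500 genes or more, with no more than 20% mitochondrial UMIs, and if 6 ependymal genes gave at least 5 and at least 0.3% of its UMIs (Ccdc153, Tmem212, Rarres2, Dynlrb2, Fam183b and Rsph1). It also had under 4 UMIs over 7 interferon-induced genes (Ifit1, Ifit3, Igtp, Iigp1, Gbp2, Irgm2 and Oasl2) and under 3 UMIs over Ucma, Krt15 and Calb1. The rule found 3583 members among 27740 kept barcodes. There were 1276 among 13745 in the brains with metastasis and 2307 among 13995 in the naive brains.

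The study set the brain around a melanoma metastasis beside the healthy brain, with astrocytes enriched. Both libraries came from C57BL/6J mice aged 10 weeks, and each was made from a pool of 3 brains. In the metastasis group the mice carried B16/F10-BrM cells, a mouse melanoma line, injected into the brain; the other group was naive. Cells were enriched with ACSA-2 microbeads, which bind an astrocyte surface antigen, and sequenced from the 3' end of transcripts. How ependymal cells came through this enrichment was not tested.

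With 1 library per group, no spread between animals can be given and no test between the groups was made. Intervals (exact, 95%) cover counting error only. After deposit the submitters swapped the titles of the records, and the current titles are followed here. Pmel, a melanocyte gene, had 174742 UMIs over all barcodes of the library labelled metastasis and 4774 in the library labelled naive. The libraries held 89193669 and 69445557 UMIs. They shared 53 kept barcodes, of which 1 was a member in both. RNA outside cells was read from barcodes with 10 to 100 UMIs and is called free RNA. Its summed macrophage markers stood at 4352 counts per 1000000 UMIs (CPM) in metastasis and 136 in naive.

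Ependymal cells form the ciliated lining of the brain's ventricles, and their beating motile cilia move cerebrospinal fluid along it. The transcription factor Foxj1, with Rfx factors, drives the genes of the motile axoneme, which holds dynein arms, radial spokes and a central pair of microtubules. Interferons act through Jak kinases, Stat2, Irf9 and their partners, and induce antiviral genes together with the major histocompatibility complex (MHC) class I genes that display peptides to T cells.

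Promoter stretches of both gene programmes are shown because the results turn on them: cilium genes, whose levels lay close together in the libraries, and interferon-induced genes, whose levels lay apart. They were read from RefSeq promoter windows on GRCm38.p6, from 250 bases before the gene's start, and each printed stretch lies outside every exon of GENCODE M21. Each is written on the gene's own strand, and capitals mark the motif. In the first 4 the motif is GAAANNGAAA, the core of the interferon-stimulated response element, on either strand. The B2m stretch (chr2:122147518-122147587, plus strand) lies within the gene body of Patl2, and its motif is 129 bases before the start.
B2m: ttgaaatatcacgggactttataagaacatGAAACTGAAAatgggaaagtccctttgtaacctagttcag
The Stat2 stretch (chr10:128270248-128270315, plus strand) holds the motif on the other strand, read there as TTTCNNTTTC, 212 bases before the start.
Stat2: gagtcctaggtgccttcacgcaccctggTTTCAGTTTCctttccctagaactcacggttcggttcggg
The Bst2 stretch (chr8:71537557-71537626, minus strand) has its motif 114 bases before the start, 1 of 2 matches in the window.
Bst2: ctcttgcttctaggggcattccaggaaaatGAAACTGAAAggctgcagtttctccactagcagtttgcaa
The Isg15 stretch (chr4:156200845-156200914, minus strand) has its motif 56 bases before the start, 1 of 3 matches.
Isg15: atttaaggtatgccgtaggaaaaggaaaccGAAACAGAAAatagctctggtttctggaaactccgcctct
In Irf1 (chr11:53769894-53769962, plus strand) the motif is TTCNNNGAA, the palindromic gamma-activated site, 81 bases before the start.
Irf1: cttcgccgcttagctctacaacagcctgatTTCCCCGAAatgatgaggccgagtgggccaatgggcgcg
In the cilium genes the motif is GTTGCC, the core that Rfx factors bind, which reads GGCAAC from the other strand. It lies 146 bases before the start of Ccdc153 (chr9:44240495-44240560, plus strand) and 28 bases before that of Enkur (chr2:21205366-21205429, minus strand).
Ccdc153: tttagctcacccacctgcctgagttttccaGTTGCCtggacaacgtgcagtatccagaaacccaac
Enkur: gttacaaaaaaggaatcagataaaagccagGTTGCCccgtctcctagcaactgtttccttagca
In Spag16 (chr1:69826837-69826902, plus strand), a central pair gene, it lies 97 bases before the start, 1 of 2 matches.
Spag16: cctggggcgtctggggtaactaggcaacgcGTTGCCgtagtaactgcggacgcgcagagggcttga

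The windows searched were the 250 bases before the start, on both strands. GAAANNGAAA was in 3.04% of the windows of 27025 gene symbols, in 21 of the 54 interferon-response and MHC class I genes with an entry (38.9%) and in 0 of 112 cilium genes. GTTGCC was in 10.5% of all windows, in 31 of the 112 cilium genes (27.7%) and in 5 of the 54 interferon genes (9.26%). TTCNNNGAA was in 7.18% of all windows, in 14 of the 54 interferon genes (25.9%) and in 5 of the 112 cilium genes (4.46%). A match describes the letters of the window and is not a measured binding site.

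The members carried the markers of ependymal cells. The markers of the rule were Rarres2, a secreted protein also called chemerin, at 4359 CPM in metastasis against 4982 CPM in naive, Tmem212, a membrane protein of ciliated cells, at 3095 and 3403 CPM, Ccdc153, a component of the ciliary axoneme, at 2152 and 2528 CPM, and Rsph1, a radial spoke protein, at 1165 and 1201 CPM. Since these genes chose the cells, their levels only describe them. The 20 ependymal markers that the rule did not use were all above the level of free RNA, and 0 of them was at least 2-fold higher or lower in metastasis. Foxj1 stood at 612 CPM in metastasis against 550 CPM in naive. Enkur, a sperm and cilium calcium channel adaptor, was at 618 and 663 CPM, and Sox2, a stem cell and glial transcription factor, at 367 and 369 CPM. These 20 genes took a median of 1.49% of a member's UMIs in each library.

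The label therefore holds for the members as a whole, with a thin edge. Members with 0.3 to 0.4% of their UMIs from the 6 rule genes numbered 53 in metastasis and 77 in naive, and the 20 unused markers took a median of 0.609% and 0.525% of their UMIs. Just outside the limit, at 0.2 to 0.3%, were 134 and 280 barcodes, with medians of 0.359% and 0.271%. Among kept barcodes under 0.2% the medians were 0.0856% and 0.108%. The edge of the rule thus ran through barcodes whose share of unused markers lay between that of most members and that of other cells.

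Genes were ranked by the lower of both libraries' log2 folds of members over all other kept barcodes, with 10 CPM added to both values and without mitochondrial, ribosomal and unnamed predicted genes. The first 15 were Rarres2, Dthd1, Tmem212, Fam183b, Cdhr4, Ccdc153, Enkur, Cdh26, Dnah12, Rsph1, Hdc, Rgs22, Odf3b, Dynlrb2 and Drc3. Rarres2, Tmem212, Fam183b, Ccdc153, Rsph1 and Dynlrb2 are the 6 genes that chose the cells, so their high rank follows from the rule. Cdh26, a cadherin, was 17.0-fold higher in members than in the other kept barcodes in metastasis and 9.96-fold in naive. Enkur was 11.5-fold and 5.68-fold higher. Foxj1 was 8.26-fold and 3.97-fold higher, while S100b, which astrocytes and oligodendrocytes also carry, was 1.58-fold and 1.38-fold higher. The other kept barcodes include the remaining ependymal cells, so these folds are lower than they would be against other cell types.

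Transcripts of other cell types were present too. Summed oligodendrocyte markers stood at 4845 CPM in metastasis against 5349 CPM in naive, and astrocyte markers at 1754 and 1789 CPM. Choroid plexus markers summed to 7988 and 15724 CPM, against 84000 and 228085 CPM in free RNA, and 0 of the 14 was at 0. At least 1% of UMIs came from choroid plexus markers in 440 members (34.5%) in metastasis and 1564 (67.8%) in naive. Outside the choroid plexus list, members with at least 1% of their UMIs from the markers of another class numbered 146 (11.4%) in metastasis and 290 (12.6%) in naive. These 146 and 290 were kept, and values that rest on them are given with and without them.

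**Figure D1:**
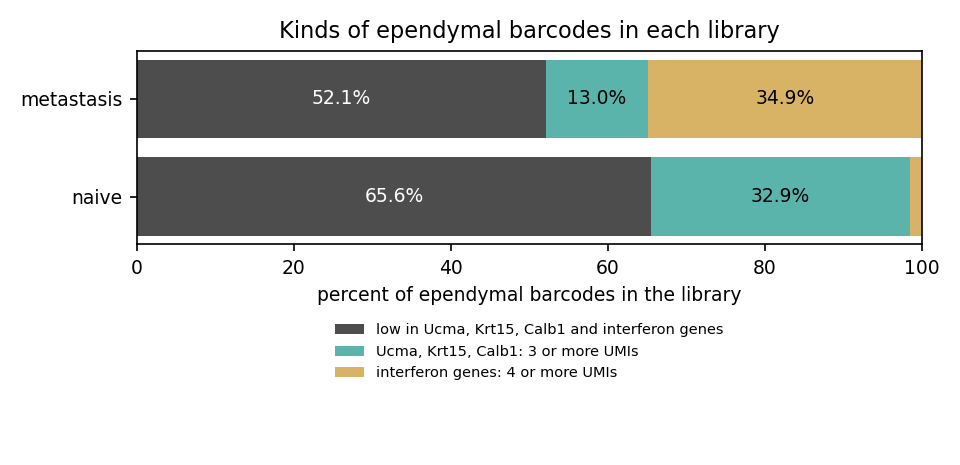
Numbers of ependymal barcodes of each kind in the metastasis and the naive library, drawn as bars of the percent of all ependymal barcodes of that library. Members made up 52.1% in metastasis and 65.6% in naive, and barcodes high in interferon genes made up 34.9% and 1.53%.

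Members made up a smaller share of the metastasis library. They were 9.28% of its kept barcodes (Clopper-Pearson interval 8.80 to 9.78%) and 16.5% of those of the naive library (15.9 to 17.1%). Of the 2449 ependymal barcodes in metastasis, 1276 were members (52.1%), 854 were high in interferon genes (34.9%) and 319 held Ucma, Krt15 and Calb1 (13.03%). Of the 3519 in naive, 2307 were members (65.6%), 54 were high in interferon genes (1.53%) and 1158 held Ucma, Krt15 and Calb1 (32.9%). Barcodes said to hold Ucma, Krt15 and Calb1 had under 4 interferon UMIs and at least 3 UMIs summed over the 3 genes. A single gene could supply them all. Of the interferon-high barcodes, 182 in metastasis and 36 in naive also had at least 3 such UMIs. The enrichment step can set how many ependymal cells entered each library, and its part in these shares was not tested.

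Members with no interferon UMI numbered 709 in metastasis and 1853 in naive. Those with 1, 2 and 3 such UMIs numbered 314, 166 and 87 in metastasis, and 364, 72 and 18 in naive. So 55.6% of members in metastasis and 80.3% in naive had none. Just past the limit, at 4 UMIs, were 87 ependymal barcodes in metastasis and 16 in naive. The barcodes of the metastasis library thus went on across the limit without a gap, and the limit divides a range of cells.

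Members with 0, 1 and 2 UMIs of Ucma, Krt15 and Calb1 numbered 752, 331 and 193 in metastasis and 1187, 716 and 404 in naive. Just past this limit, at 3 UMIs, were 92 and 305 ependymal barcodes. After thinning each cell to 1000 UMIs, which left out no member, 21.6% of members in metastasis (19.4 to 24.0%) and 22.5% in naive (20.8 to 24.3%) still had at least 1 UMI of these 3 genes. A fixed number of UMIs is easier to reach in a deeper cell. Members had a median of 2591 UMIs in metastasis and 2808 in naive, barcodes holding Ucma, Krt15 and Calb1 3675 and 4324.5, and interferon-high barcodes 3725.5 and 8395.5.

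The Ucma, Krt15 and Calb1 limit did not remove equal shares in both libraries. Over all ependymal barcodes, whatever their interferon UMIs, 20.5% in metastasis (18.9 to 22.1%) and 33.9% in naive (32.4 to 35.5%) had at least 3 UMIs of the 3 genes. At 1000 UMIs per cell, 29.5% (27.7 to 31.3%) and 39.3% (37.7 to 40.9%) had at least 1. These intervals cover the counting of barcodes in 1 library per group and no spread between animals. Whether the animals differed was not tested.

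Within the members, the metastasis library was set against the naive one by the ratio of summed CPM, on the log2 scale. Of the 14923 genes with at least 20 UMIs over both libraries, 470 were at least 2-fold higher in metastasis (3.15%) and 236 at least 2-fold lower (1.58%), with a median log2 ratio of 0.02. Only 98 of the higher and 141 of the lower genes stood at or above the level of free RNA in the library where they were higher. The counts of each list below are read beside these shares.

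The motile cilium genes lay close together in the libraries. Of the outer dynein arm and docking genes 14 of 16 had enough UMIs, of the inner arm genes 15, of the nexin, spoke and central pair genes 26 of 27, of the other axonemal genes 24, of the dynein assembly genes 18 of 19, and of the intraflagellar transport genes 37. In these 6 lists 0 genes were 2-fold or more higher or lower in metastasis. Their median log2 ratios were -0.03, 0.00, -0.05, -0.09, -0.06 and -0.01, against 0.02 over all genes.

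Dnah12, an inner arm dynein heavy chain, stood at 511 CPM in metastasis against 553 CPM in naive (-0.11, -0.19 to -0.03). Dnah5, the outer arm heavy chain, was at 286 and 285 CPM, a log2 ratio of 0.00 (-0.10 to 0.11). Hydin, a central pair protein, was at 296 and 301 CPM. None of these pairs was near a 2-fold difference.

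In the axonemal list the intervals of 9 genes lay below 0 and that of 1 above. In each of the other lists 2 or 3 lay below 0, and in the intraflagellar transport list 1 lay above. The largest sizes were those of Ccdc63, an outer arm docking gene below free RNA (0.95), Kif17, a kinesin motor (0.51), and Tekt2, a tektin of axonemal tubules (-0.48), and their intervals included 0.

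Cfap52, an axonemal protein, was at 180 CPM in metastasis against 149 CPM in naive, for a log2 ratio of 0.27. Lrrc6, which assembles dynein arms, was at 103 and 137 CPM (-0.40), and Mns1, a filament of axonemal tubules, at 577 and 669 CPM (-0.21). Tubb4b, the tubulin of motile cilia, was at 1749 and 1914 CPM (-0.13). Cfap52, Lrrc6 and Mns1 were chosen for mention after their values were seen.

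**Figure D2:**
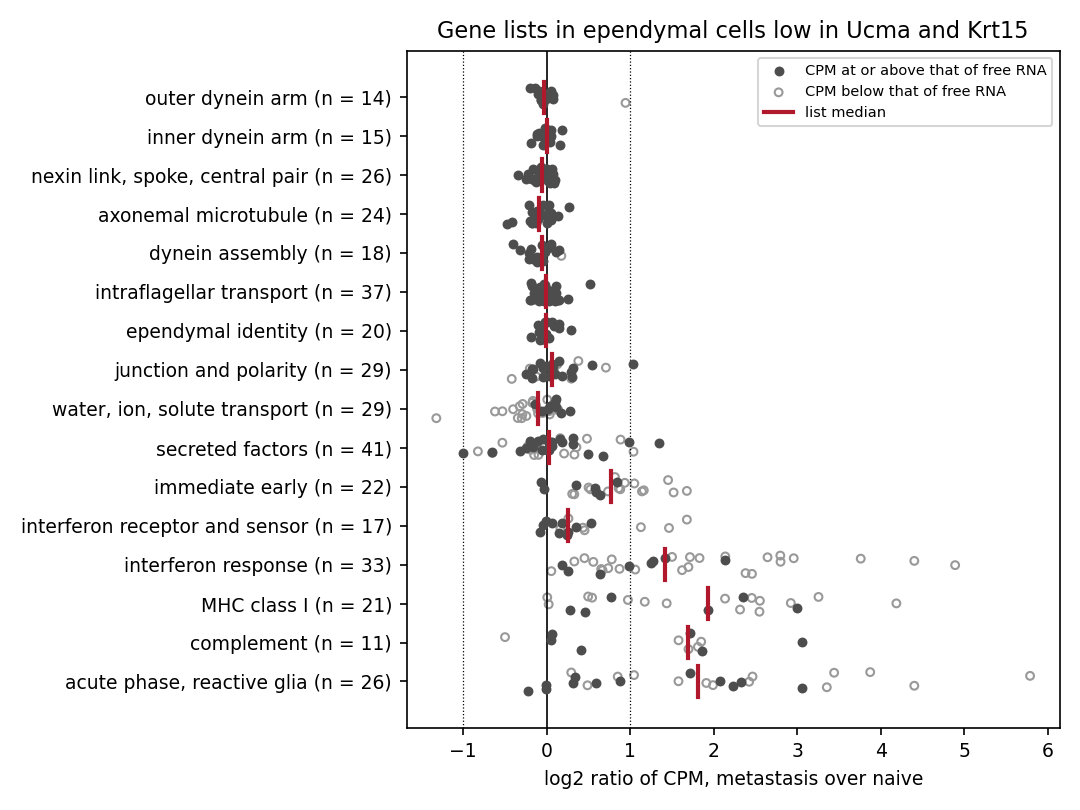
Log2 ratio of metastasis over naive for each measured gene of the named lists in the members, with the median of each list as a red bar and filled points for genes at or above free RNA. The cilium lists lie around 0, while the MHC class I list has a median of 1.93 and the interferon list outside the rule one of 1.42.

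Of 29 regulators of multiciliated cells 26 were measured, and 0 was at least 2-fold higher or lower, with a median of -0.02. Foxj1 had a log2 ratio of 0.15 (0.08 to 0.23) at the levels given above. Sox9, a glial transcription factor, stood at 797 CPM in metastasis against 791 CPM in naive. Gmnc, which starts the multiciliated programme, was at 20.3 and 24.8 CPM, and its interval for the log2 ratio included 0 (-0.69 to 0.11).

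Junction and polarity genes also lay close together: 29 of 30 were measured, 1 was at least 2-fold higher and 0 lower, with a median of 0.07. Ezr, the linker of membrane and actin in microvilli, stood at 621 CPM in metastasis against 558 CPM in naive. Celsr2, a planar polarity cadherin that aligns ependymal cilia, was at 45.5 and 31.1 CPM (0.55, 0.25 to 0.84). Cd24a, a surface glycoprotein of ciliated cells, was at 509 and 417 CPM (0.29, 0.21 to 0.37). The intervals of Celsr2 and Cd24a excluded 0, and both differences were under 2-fold.

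Of the 30 transport genes 29 were measured, 0 was at least 2-fold higher and 1 lower, with a median of -0.10. Only 9 of the 29 stood at or above free RNA. Aqp4, the water channel, stood at 484 CPM in metastasis against 470 CPM in naive, and Slc2a1, the glucose transporter, at 419 and 462 CPM. Slc4a4, a sodium bicarbonate transporter, was at 76.7 and 111 CPM (-0.53, -0.73 to -0.33). The lower gene was Fxyd6, a sodium pump regulator, at 5.15 and 12.9 CPM. Its level in members was below that of free RNA in both libraries.

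Secreted and carrier genes were measured for 41 of 42, of which 2 were at least 2-fold higher and 1 lower, with a median of 0.03. Apoe, the lipid carrier, stood at 10788 CPM in metastasis against 11108 CPM in naive. Dbi, an acyl-CoA binding protein, was at 13604 and 16179 CPM (-0.25). Clu, a secreted chaperone, was at 3622 and 3451 CPM (0.07). The 2 higher genes were Ccn2, a matrix-associated growth factor, at 13.8 and 5.43 CPM (1.35), and Igfbp7, which vessels also secrete, at 48.0 and 23.3 CPM (1.04). Igfbp7 lay below the 405 and 151 CPM of free RNA.

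MHC class I and antigen processing genes were higher in metastasis. All 21 were measured, of which 13 were at least 2-fold higher and 0 lower, with a median log2 ratio of 1.93. Of these 13 only 3 stood at or above the level of free RNA. H2-K1, a classical MHC class I heavy chain, had 3110 UMIs in metastasis and 1246 in naive, or 843 and 165 CPM, a log2 ratio of 2.35 (2.26 to 2.45). Free RNA held 736 CPM of H2-K1 in metastasis and 118 CPM in naive, so members stood above it in both libraries.

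B2m, the light chain of class I molecules, stood at 377 CPM in metastasis against 49.7 CPM in naive (2.92, 2.76 to 3.09). H2-D1, another classical heavy chain, was at 482 and 82.2 CPM (2.55, 2.42 to 2.69). For B2m and H2-D1 the metastasis library's free RNA was higher than the members, at 997 and 697 CPM. In metastasis, free RNA was put at 8.95% of members' UMIs by Ttr, 7.85% by melanoma markers and 19.8% by macrophage markers. Over 15 alternatives, among them its subtraction, the log2 ratio of B2m stayed between 2.31 and 3.72. That of H2-D1 stayed between 2.09 and 3.23. The part of free RNA in the difference was not tested beyond this. H2-Q7 and H2-Q4, nonclassical class I genes, had log2 ratios of 4.19 and 2.99; they share near-identical copies, so their counts are uncertain. Calr and Pdia3, chaperones of peptide loading in the endoplasmic reticulum, did not follow: Calr stood at 506 and 498 CPM and Pdia3 at 358 and 356 CPM.

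The same genes were seen in more cells. At 1000 UMIs per cell, H2-K1 was detected in 41.6% of members in metastasis (38.9 to 44.4%) and 14.5% in naive (13.1 to 16.03%), and without thinning in 61.1% and 32.7%. In barcodes with at least 1% oligodendrocyte markers, with median depths of 2782 and 3001 UMIs, the thinned shares were 12.4% and 4.33%. B2m was detected in 25.9% (23.5 to 28.4%) and 4.42% (3.62 to 5.34%) of members, and without thinning in 45.4% and 11.1%, against thinned shares of 15.98% and 4.42% in oligodendrocyte-marked barcodes. For B2m the naive share of members was thus at the level of the other cell type.

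Of 40 interferon-response genes that the rule did not use, 33 were measured, of which 20 were at least 2-fold higher in metastasis and 0 lower, with a median log2 ratio of 1.42. The intervals of 28 lay above 0, as did those of 9.88% of all genes tested. Only 4 of the 20 stood at or above free RNA. The rule limits these genes as well, since they go with the 7 it counts, and it removed 854 ependymal barcodes from metastasis.

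Ifitm3, a membrane protein that blocks virus entry, stood at 1601 CPM in metastasis against 810 CPM in naive (0.98, 0.93 to 1.04), above the 938 and 413 CPM of free RNA. It was detected in 63.5% and 48.3% of members at 1000 UMIs per cell, in 83.5% and 74.6% without thinning, and in 9.60% and 4.79% of oligodendrocyte-marked barcodes at 1000 UMIs. Its share of cells was thus above that of the other cell type in both libraries.

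The signal carriers were also higher. Irf9, which joins Stat2 on DNA, stood at 45.5 CPM in metastasis against 18.8 CPM in naive (1.28, 0.94 to 1.61). Stat2 was at 24.4 and 9.14 CPM (1.42, 0.95 to 1.89). Irf1, a transcription factor induced by interferons, was at 19.5 and 8.22 CPM (1.25, 0.74 to 1.76). Irf9, Stat2 and Irf1 in members of metastasis stood at or above free RNA. Among members with 0 interferon UMIs, Stat2 had a log2 ratio of 0.64.

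Bst2, which tethers virus particles to the membrane, stood at 158 CPM in metastasis against 25.3 CPM in naive (2.65, 2.41 to 2.89), with free RNA at 292 and 99.5 CPM. Isg15, a ubiquitin-like modifier, was at 51.5 and 6.63 CPM (2.96, 2.50 to 3.44), with free RNA at 144 and 7.37 CPM. Cxcl10, a chemokine for T cells, had 87 UMIs in metastasis and 6 in naive, a log2 ratio of 4.89 (3.71 to 6.38). Free RNA of metastasis held 125 CPM of Cxcl10 against 23.6 CPM in members, and with free RNA subtracted at the largest estimated share the log2 ratio was -0.067.

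Of the 17 measured interferon receptor and sensor genes, 3 were at least 2-fold higher and 0 lower, with a median of 0.26. Ifnar1, a chain of the type I interferon receptor, stood at 29.0 CPM in metastasis against 30.6 CPM in naive (-0.08). Ifngr1, a chain of the interferon gamma receptor, was at 85.4 and 72.1 CPM (0.24), and the kinase Jak1 at 70.5 and 71.0 CPM. Socs3, a feedback inhibitor, was the highest of the 3 at 42.0 and 13.1 CPM (1.68), below free RNA at 50.6 and 33.2 CPM. Ifnar1, Ifngr1 and Jak1 are named for their role, after their values were seen.

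**Figure D3:**
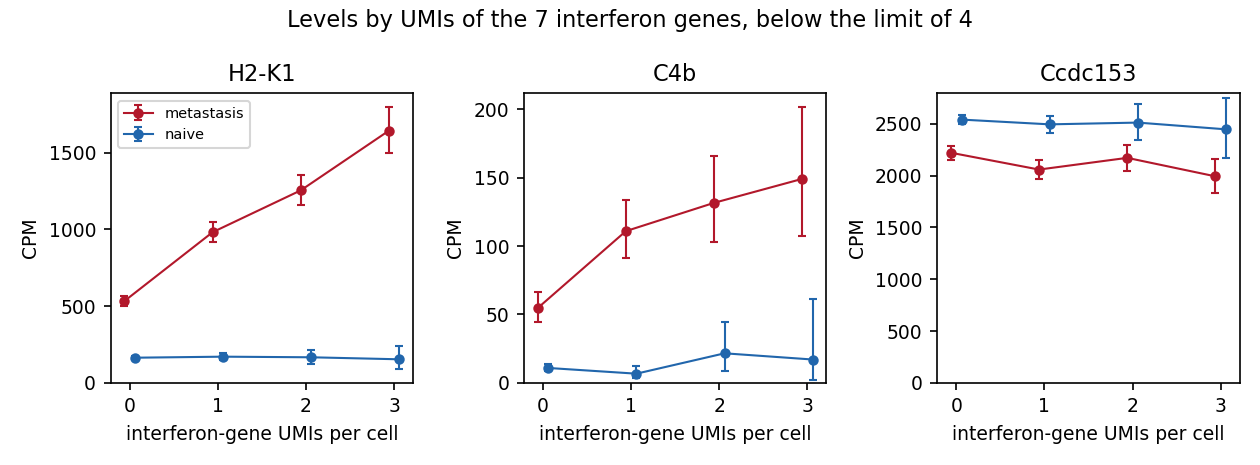
Summed CPM of members by their number of UMIs over the 7 interferon genes of the rule (0 to 3), for both libraries; bars show exact 95% counting intervals. H2-K1 goes from 533 to 1644 CPM across the classes of the metastasis library, while Ccdc153 stays between 1992 and 2220 CPM.

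Members with no interferon UMI were also unequal between the libraries. In metastasis, H2-K1 stood at 533 CPM in members with 0 interferon UMIs, and at 982, 1255 and 1644 CPM in those with 1, 2 and 3. In naive it was at 164, 171, 167 and 153 CPM. Thus the lowest class of the metastasis library was above every class of the naive library, but below the 736 CPM of free RNA in its own library. The classes were cut by counts of interferon genes, so differences between classes of 1 library describe and test nothing.

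C4b, a complement component, stood at 54.6, 111, 132 and 149 CPM across the same 4 classes in metastasis, and at 10.9, 6.69, 21.6 and 17.0 CPM in naive. Ccdc153, a gene of the rule, was at 2220, 2057, 2170 and 1992 CPM in metastasis, and Foxj1 at 612, 613, 606 and 621 CPM. The classes differed in depth, with median UMIs from 2446 to 3002 in metastasis and from 2673 to 5030 in naive. Summed macrophage markers stood at 591, 1513, 849 and 437 CPM across the classes in metastasis. Microglia markers summed to 1124, 1590, 1114 and 778 CPM there, and melanoma markers to 462, 529, 938 and 398 CPM. The part of such transcripts in the levels of H2-K1 and C4b was not tested.

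Complement genes were higher. Of 15, 11 were measured, of which 7 were at least 2-fold higher and 0 lower, with a median of 1.70, and 3 of the 7 stood at or above free RNA. With free RNA subtracted at the macrophage share the median was 0.52. C4b had 325 UMIs in metastasis and 80 in naive, or 88.1 and 10.6 CPM (3.06, 2.70 to 3.43), with free RNA at 35.0 and 0 CPM. C3, the central complement protein, was at 128 and 39.0 CPM (1.72, 1.502 to 1.93), above free RNA at 46.7 and 7.37 CPM. Serping1, the inhibitor of the first complement component, was at 40.4 and 11.1 CPM (1.86, 1.46 to 2.26).

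C4b was detected in 9.25% of members in metastasis and 1.13% in naive at 1000 UMIs per cell, and in 17.9% and 3.16% without thinning. The thinned shares in oligodendrocyte-marked barcodes were 2.86% and 1.25%, so the naive share of members was no higher than that of this other cell type. C3 was detected in 9.09% and 3.81% of members, in 17.2% and 7.63% without thinning, and in 0.9747% and 0.144% of oligodendrocyte-marked barcodes at 1000 UMIs. C1qa, a subunit of the first component made by microglia, stood at 359 and 99.6 CPM in members, below free RNA at 1483 and 254 CPM.

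Among 31 acute phase and reactive glia genes 26 were measured, of which 16 were at least 2-fold higher and 0 lower, with a median of 1.81, and 5 of the 16 stood at or above free RNA. Gfap, an intermediate filament that reactive astrocytes also make, stood at 126 CPM in metastasis against 29.8 CPM in naive (2.08, 1.85 to 2.32). Serpina3n, a secreted protease inhibitor, was at 25.5 and 5.43 CPM (2.23, 1.69 to 2.80). Its share of cells at 1000 UMIs was 1.88% in metastasis, under the 2.25% of oligodendrocyte-marked barcodes. Without thinning, 3.997% and 1.21% of members had a UMI of Serpina3n.

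Lcn2, an iron-scavenging acute phase protein, had 81 UMIs in members of metastasis and 0 in naive. With the naive members set to a floor of 3 UMIs its log2 ratio was 5.79, a value that depends on this floor. Over 15 alternatives it lay between 4.08 and 7.91. Lcn2 was at 21.96 CPM in metastasis, below free RNA at 35.0 CPM. At 1000 UMIs per cell it was detected in 1.33% of members in metastasis and in 0% in naive, where a count of 0 allows a share of up to 0.160% of cells with a UMI at that depth. Without thinning 2.04% and 0% had a UMI of Lcn2, and of the oligodendrocyte-marked barcodes 0.396% and 0.0160% had one at 1000 UMIs. Vim, a filament protein of ependymal cells, was at 1469 and 1163 CPM (0.34, 0.29 to 0.39), and Hspb1, a small heat shock protein, at 223 and 261 CPM (-0.22). Gfap was chosen for mention after its values were seen.

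Chemokine genes had 10 of 16 measured genes at least 2-fold higher in metastasis and 1 lower, and 0 of the 10 reached free RNA. Ccl7 and Ccl12, monocyte attractants, had 48 and 94 UMIs in metastasis against 2 and 9 in naive, with free RNA of metastasis at 54.5 and 164 CPM and members at 13.01 and 25.5 CPM. The lower gene was Cxcl12, the ligand of Cxcr4, with 41 and 168 UMIs (-1.002, -1.53 to -0.50). Without the members that carried markers of another class its log2 ratio was -0.44. Cxcr4, its receptor, stood at 71.6 and 66.6 CPM (0.10), and Ackr3, its scavenging receptor, at 47.2 and 33.5 CPM (0.49).

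Markers of immune cells and melanoma moved with these lists. The MHC class II list, of antigen-presenting cells, had 7 of 7 measured genes at least 2-fold higher and 0 at free RNA, with Cd74 at 98.7 and 14.3 CPM in members and 459 and 25.8 CPM in free RNA. Summed macrophage markers in members were 863 CPM in metastasis against 52.3 CPM in naive, with 9 of 10 measured genes at least 2-fold higher and 1 marker at 0 in each library. Summed melanoma markers were 545 and 39.6 CPM, against 6941 and 438 CPM in free RNA. The part of these transcripts in the lists above was not tested.

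**Figure D4:**
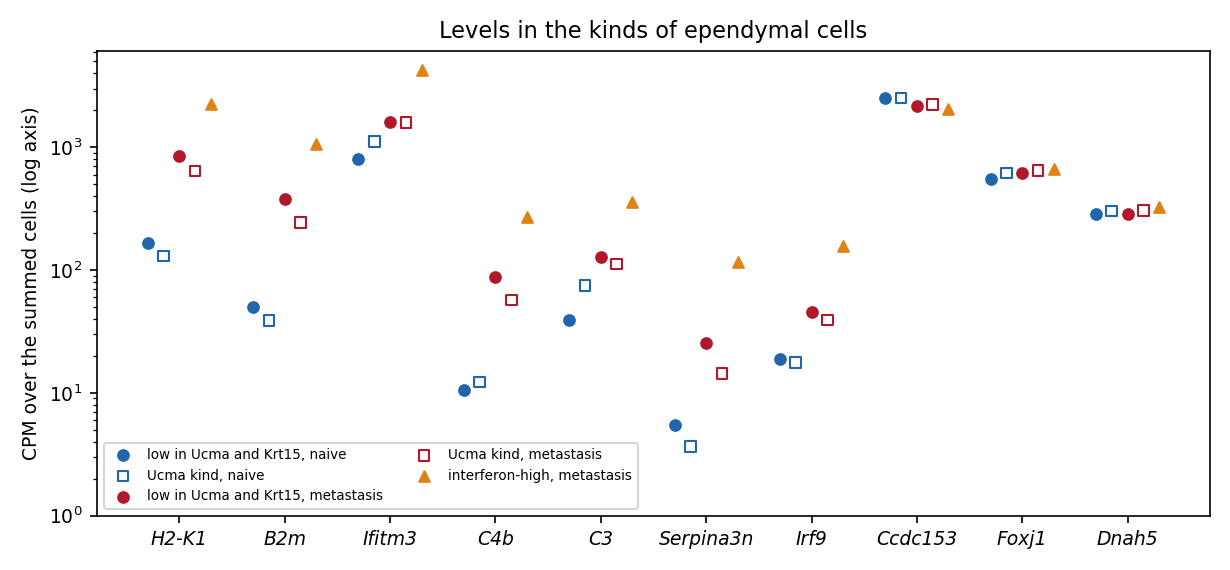
CPM on a log axis of named genes in members, in barcodes holding Ucma, Krt15 and Calb1 of both libraries and in interferon-high barcodes of metastasis. H2-K1 in metastasis stands at 641 CPM in barcodes holding Ucma, Krt15 and Calb1, 843 CPM in members and 2262 CPM in interferon-high barcodes.

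H2-K1, C4b and C3 went in the same direction in another kind of ependymal cell, while some other genes did not. In barcodes holding Ucma, Krt15 and Calb1, of 13913 genes 347 were higher in metastasis by 2-fold or more (2.49%) and 367 lower (2.64%). H2-K1 stood there at 641 CPM in metastasis against 130 CPM in naive, for a log2 ratio of 2.31, beside 2.35 in members. C4b had 2.22 beside 3.06, and C3 0.58 beside 1.72. Whether these ratios differ between the kinds of cells was not tested.

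The remaining genes of the 12 highest log2 ratios, ranked with 10 CPM added, were Ccn1, Fosb and Flvcr1. Ccn1, a matrix protein induced by mechanical and growth signals, stood at 208 CPM in metastasis against 105 CPM in naive (0.99, 0.84 to 1.13). Fosb, an immediate early transcription factor, was at 60.7 and 33.8 CPM (0.85, 0.58 to 1.11). Flvcr1, a choline and haem transporter, was at 115 and 68.2 CPM (0.76, 0.57 to 0.94). All 3 were under 2-fold, and each interval excluded 0.

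Genes lower in metastasis had smaller ratios. Gstp1, a glutathione transferase, had 33 UMIs in metastasis and 168 in naive, or 8.95 and 22.3 CPM (-1.32, -1.90 to -0.77). Its shares at 1000 UMIs were 1.02% and 1.99% of members, below the 5.02% and 8.78% of oligodendrocyte-marked barcodes, and 2.43% and 6.76% of members without thinning. Gria2, a glutamate receptor subunit, had 28 and 150 UMIs (-1.39, -2.03 to -0.80), with thinned shares of 0.392% and 1.34% of members, below the 1.72% and 2.72% of oligodendrocyte-marked barcodes, and 1.25% and 2.47% of members without thinning. For Gstp1 and Gria2 the shares of members were thus below those of this other cell type in both libraries. Naive free RNA held 18.4 CPM of Gstp1 and 7.37 CPM of Gria2, against 22.3 and 19.9 CPM in naive members. C2cd4b had 25 and 119 UMIs (-1.22). Tmem267, a membrane protein, stood at 27.1 and 53.8 CPM (-0.99, -1.32 to -0.67).

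Gsn, an actin-severing protein, was at 255 CPM in metastasis against 369 CPM in naive (-0.53, -0.64 to -0.43); it was detected in 17.0% and 27.5% of members at 1000 UMIs, in 33.8% and 49.5% without thinning, and in 51.6% and 47.2% of oligodendrocyte-marked barcodes at 1000 UMIs. Arntl, the clock activator also called Bmal1, was at 22.8 and 38.6 CPM (-0.76). Nav3, a gene of axon growth, was at 15.4 and 25.7 CPM (-0.73). Rac3, Fbxw10 and Treml1 had log2 ratios of -0.95, -0.86 and -0.97. With Cxcl12 these are among the 12 lowest by the same rank.

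Immediate early genes had 6 of 22 measured genes at least 2-fold higher and 0 lower, with a median of 0.78. Fos stood at 680 CPM in metastasis against 308 CPM in naive (1.14, 1.06 to 1.22), with free RNA at 681 and 240 CPM. Junb was at 149 and 54.2 CPM (1.45), below free RNA, while Jund was at 610 and 637 CPM (-0.06). None of the 6 higher genes reached free RNA.

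Genes of energy and stress lay close together. Of 33 oxidative phosphorylation genes 0 was at least 2-fold higher or lower, with a median of -0.02, and the same held for 22 heat shock genes, with a median of 0.04. Only 1 of the 33 stood at or above free RNA, and 14 of the 22 did. Of 28 metallothionein and oxidative stress genes 2 were higher and 0 lower, among them Hmox1, the haem-degrading enzyme, at 55.8 and 5.96 CPM, below free RNA at 101 and 14.7 CPM. Fabp7, a fatty acid carrier of glia, stood at 206 CPM in metastasis against 401 CPM in naive (-0.96, -1.08 to -0.85), below free RNA in both. Proliferation genes had 8 of 18 higher and 0 lower, and 0 of the 8 reached free RNA.

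Set beside the ependymal barcodes holding Ucma, Krt15 and Calb1, the members had other levels of several genes in each library. The cells were parted by their own counts, so these ratios describe and test nothing. Among 12942 genes in metastasis 370 were at least 2-fold higher in members (2.86%) and 155 lower (1.2%), and among 15401 in naive 346 were higher (2.25%) and 181 lower (1.18%). Of the 12844 genes measured in both, 43 were higher and 28 lower in both libraries. Among markers of other cell types, 5 of 12 for microglia in metastasis were at least 2-fold higher in members and 0 lower. For choroid plexus in naive 4 of 14 were higher and 1 lower, and for endothelial cells in metastasis 0 of 6 were higher and 3 lower. The part of transcripts from other cell types in these counts was not tested. Ucma, a secreted cartilage matrix protein, stood at 39.0 CPM in members and 285 CPM in the other barcodes of metastasis, and at 44.8 and 425 CPM in naive, which the rule fixes.

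Genes were named by the lower size of both libraries with 10 CPM added, among 4389 genes that had enough UMIs, reached free RNA and belonged to no excluded class, so genes of fewer UMIs can have larger ratios. Cdh26 was higher in members, at 88.9 CPM against 45.2 CPM in metastasis and 86.1 against 44.7 CPM in naive (log2 ratios 0.97 and 0.95). Matn2, a matrix protein, stood at 47.4 against 25.6 CPM and at 34.8 against 17.0 CPM (0.89 and 1.03). Rspo3, which strengthens Wnt signalling, was at 89.2 against 48.5 CPM and at 77.5 against 46.0 CPM (0.88 and 0.75). Wls, which carries Wnt proteins to the cell surface, was at 571 against 408 CPM and at 515 against 371 CPM (0.49 and 0.47). Wdr95 (1.13 and 0.70) and Paqr5, a membrane progestin receptor (0.51 and 0.67), were the others of the 6 highest among these.

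Col6a5, a collagen VI chain, was lower in members, at 26.6 against 80.7 CPM in metastasis and 24.2 against 78.5 CPM in naive (-1.60 and -1.69). Septin3, a septin of neural cells, stood at 17.6 against 53.1 CPM and 18.6 against 51.9 CPM (-1.59 and -1.48). Pi15 (-1.05 and -1.10), Amotl1 (-0.92 and -0.90), Lhx2 (-1.03 and -1.53) and Meis2 (-0.75 and -0.97) were the others of the 6 lowest among the same genes. Lhx2 and Meis2 are homeodomain transcription factors of the developing forebrain.

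Of 44 regional transcription factors 27 were measured in metastasis and 30 in naive. In members, 1 was at least 2-fold higher in each library, and 4 and 5 were lower. Their medians were -0.12 and -0.08, beside -0.00 and -0.02 over all genes. Emx2, a factor of the forebrain, stood at 10.3 CPM in members of metastasis against 24.3 CPM, and at 9.67 CPM in members of naive against 19.7 CPM (-1.24 and -1.02). Otx2, which choroid plexus also makes, was at 111 against 77.4 CPM and 107 against 70.3 CPM. Emx2 and Otx2 were chosen after their values were seen.

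The 20 ependymal markers outside the rule had 0 genes at least 2-fold higher or lower in members against the barcodes holding Ucma, Krt15 and Calb1, with medians of -0.02 in metastasis and -0.03 in naive.

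Against the interferon-high ependymal barcodes, the members were lower in the genes that go with the rule. Of 13905 genes in metastasis 222 were at least 2-fold higher in members (1.6%) and 301 lower (2.16%). In naive, where the other class held 54 barcodes, 1041 of 13932 were higher (7.47%) and 594 lower (4.26%). Markers of other cell types were among the higher genes there, with 12 of 12 for oligodendrocytes and 9 of 12 for microglia, and 0 lower. In metastasis 0 of these markers was at least 2-fold higher or lower. The part of transcripts from other cell types in these counts was not tested. Of 38 interferon-response genes outside the rule measured there, 36 were at least 2-fold lower in members of metastasis, with a median of -2.35. H2-K1 stood at 843 CPM in members and 2262 CPM in interferon-high barcodes (-1.42), and C3 at 128 and 360 CPM (-1.49). Ccdc153 was at 2152 and 2062 CPM (0.06), and Foxj1 at 612 and 660 CPM (-0.11). Paqr5 and Fgf18, a fibroblast growth factor, were among the 6 highest of 4987 genes under the same limits, with log2 ratios of 0.53 and 0.92 in metastasis and 0.63 and 0.52 in naive. The naive interval of Fgf18 included 0 (-0.23 to 1.37).

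Variation among the members was described by the Fano factor, the variance over the mean, which was computed at 1000 UMIs per cell for 3703 genes; its median was 1.03 in both libraries, near that of counting noise, and 79 genes reached 1.5 in both. Hbb-bs, a haemoglobin chain of red cells, had 128 in metastasis and 183 in naive. Malat1, a nuclear noncoding RNA, had 17.1 and 21.0, and Fth1, the ferritin heavy chain, 3.78 and 3.95. Ptgds, a prostaglandin synthase, had 18.2 and 12.7, and Ptn, a growth factor, 9.62 and 11.3. Without the members carrying markers of another class, 36 genes reached 1.5 in both. Hbb-bs then had 1.04 in metastasis and 189 in naive, and Ptgds 20.03 and 1.29. Ptn had 3.12 and 2.51, Fth1 1.997 and 1.896, and Malat1 16.8 and 21.9. The high values of Hbb-bs in metastasis and of Ptgds in naive thus rested on the members left out.

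The Fano factor of Dbi was 4.004 in metastasis and 3.93 in naive, and 3.83 and 3.67 without those members, and that of Apoe was 10.0 and 6.67, and 5.10 and 5.25. For Ctss, a protease of microglia and macrophages, it was 3.12 and 3.43, and 1.06 and 1.14 without them. Immediate early genes had a median Fano factor of 1.53 and 1.66, and the cilium lists had medians from 0.996 to 1.07.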

How the data were processed

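The authors deposited raw UMI counts, whole numbers for each gene in each barcode, without a filter for cells. STARsolo and GRCm38 are named in the submitters' processing notes; the sources used here do not give settings or annotation. Sample columns without a group numbered 0. The members, gene lists and rules for names were chosen with earlier results of these data known. Barcodes with at least 1000 UMIs numbered 13937 and 14301, more than the cells loaded per the labels' protocols, so some can be debris or free RNA. Per class and library, counts were summed and given as CPM, and ratios carry exact conditional binomial 95% intervals with a floor of 3 UMIs. On simulated Poisson counts, 95.9% of 14723 unchanged genes among the 14923 tested kept the true value in their interval. The simulation held no further spread between cells or animals, so it checks the calculation only. Doublets were scored with scrublet in scanpy 1.11.5 and not removed, since its automatic limit marked 0 barcodes of metastasis and 855 of naive; the 6% highest scores took 144 (11.3%) and 253 (11.0%) of members. Named genes were the rule's markers, the 12 highest and 12 lowest ratios with 10 CPM added (at least 100 UMIs, at or above free RNA, without mitochondrial, ribosomal, predicted, rule, Y-linked and other-class genes), the 6 highest and lowest against each other ependymal kind, and in each list the largest ratios and highest levels; genes chosen otherwise are marked as such, and a few named by these rules are not reported here. A few further genes stand in the text for their role, after their values were seen. Gene positions and exons come from GENCODE M21, matched by 54349 of 55401 identifiers with version and 55141 without. Python 3.11.15, numpy 2.4.6, pandas 2.3.3, scipy 1.17.1 and matplotlib 3.10.9 were used.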

Additional observations from a re-analysis of the deposited data

Results flagged for a closer look

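In 3 named or listed genes the members and the ependymal barcodes holding Ucma, Krt15 and Calb1 lay on opposite sides of 0 between the libraries, with both intervals excluding 0; the difference itself was not tested. The lists held 815 gene symbols, and the intervals cover counting error only, so a few such genes can come from the search alone. Insig1, a brake on sterol synthesis, had a log2 ratio of metastasis over naive of -0.48 in members (16.8 and 23.5 CPM) and 0.90 in the other barcodes (26.9 and 14.4 CPM). S100a6, a calcium-binding protein, had 0.26 in members (605 and 505 CPM) and -0.23 in the others (928 and 1085 CPM). Stmn1, a regulator of microtubules, had -0.12 in members (296 and 323 CPM) and 0.17 in the others (298 and 265 CPM). Insig1 and Stmn1 in members lay below the level of free RNA.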

How the results depend on the processing

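Depth limits low genes: with at least 100 UMIs required per gene, 119 genes were at least 2-fold higher and 22 lower in metastasis, and with at least 1 UMI 5813 and 859, beside 470 and 236. The number higher was 290 in members with at least 1% of UMIs from the 6 rule genes and 299 in members with 0 interferon UMIs. The number lower was 387, 356 and 906 after free RNA was subtracted at the shares given by Ttr, melanoma and macrophage markers; the last also put Cxcl10 at -0.067. Against barcodes holding Ucma, Krt15 and Calb1, thinning gave 640 higher and 249 lower in metastasis; at least 1% rule genes gave 165 higher, 0 UMIs of the 3 genes 355 lower, and leaving out members with another class's markers 216 higher in naive; limits set after thinning gave 1000 and 1780 in metastasis and 881 and 392 in naive. Against interferon-high barcodes in naive, thinning gave 607 higher and 3166 lower, and a limit of under 2 interferon UMIs 608 and 269; limits set after thinning gave 693 higher in metastasis. H2-K1 stayed between 1.70 and 3.16, C4b between 2.33 and 3.98 and C3 between 1.24 and 2.51 over 15 alternatives, and the MHC class I median between 1.05 and 2.89 over 17. The interferon list's median went under 2-fold at 0 interferon UMIs (0.89), under 2 (0.99) and at the macrophage share of free RNA (0.79). The number of genes with a Fano factor of 1.5 was 36 without mixed members. The alternatives on mixed barcodes, the macrophage share, no interferon limit, 0 interferon UMIs and the 6% of doublet scores were chosen after seeing the data. Where not shown by fewer cells or genes, the cause was not tested. No paired analysis was possible because each group has 1 library.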

Other observations

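Homeobox genes of the hindbrain and of the midbrain boundary were few in members. Hoxb2 and Hoxb3, hindbrain factors, stood at 5.15 CPM each in members of metastasis and 1.19 CPM each in naive. En1, a factor of the midbrain and hindbrain boundary, was at 3.795 and 8.22 CPM. The log2 ratios of metastasis over naive were 2.11 for Hoxb2 and Hoxb3 and -1.11 for En1, and they rest on few UMIs. En2, of the same boundary, had 0.13.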
